A study of Homo sapiens with 2 samples.

Results

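The genes described here are the protein-coding genes of human chromosome 4 that lie between the tip of the short arm and IGFBP7, a gene on the adjoining long arm. A gene was a member when its row ended no later than a limit just past the end of IGFBP7 (position 57110385 of GRCh38, coordinates of the deposited table), was annotated with a protein-coding transcript, and reached 1 FPKM in at least 1 of the libraries. FPKM is a fragment count normalised to transcript length and to the number of mapped fragments. The rule gave 132 members out of 10321 protein-coding genes at that level, in a table of 30856 rows. The region held 407 rows in all, of which 225 were protein-coding, and 93 of those stayed under 1 FPKM in both libraries.

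The cells were THP-1, an established human line from an acute monocytic leukaemia, which the labels call acute myeloid leukaemia cells. The resistant group was 1 library of THP-1 cells adapted to cytarabine (Ara-C), a nucleoside analogue, through stepwise doses between 5 nM and 10 µM, and the parental group was 1 library of untreated THP-1 cells. Per the labels' protocols, adapted cells counted as resistant once they doubled as fast as the untreated cells, and poly(A) RNA was sequenced. The labels do not say whether the resistant cells were 1 clone or a pool, nor whether the drug was present at harvest.

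Total counts were 58285463 in the resistant and 57434972 in the parental library. Of 15 myeloid markers, 14 reached 1 FPKM in at least 1 library, with a summed level of 1504 FPKM in the resistant library against 1365 in the parental one. The sum joins markers that differed in opposite ways: LYZ had 95.8 FPKM in resistant cells against 225 in parental cells, and CTSG had 306 against 155 in the same order. The exception was CD14, at 0.03 FPKM in the resistant library against 0.50 in the parental one. Of 14 measured markers of T and NK cells, B cells, erythroid cells or megakaryocytes, and epithelial cells or fibroblasts, NCAM1 alone reached 1 FPKM. With 1 library per group there is no spread between replicates, so no difference below has a test between conditions. The region was chosen by the FPKM ratios of these same libraries, which also placed its far end, so the differences between the region and other genes describe how it was chosen.

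The short arm of chromosome 4 is gene-rich near its tip and gene-poor along much of its length. Its best known genes include HTT, the gene of Huntington disease, and NSD2, a histone methyltransferase lost in Wolf-Hirschhorn syndrome and rearranged in multiple myeloma. The adjoining long arm carries the receptor tyrosine kinase genes PDGFRA, KIT and KDR. The members as a whole form no pathway: what they share is position.

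Nearly every member was lower in resistant than in parental cells, and most were lower to a similar degree. The measure used was the log2 ratio of FPKM + 1, resistant over parental, in which the added 1 shrinks the ratios of low genes. Its median over the 132 members was -0.59 (quartiles -0.73 and -0.45), and 129 members were below 0. Over all 10321 expressed protein-coding genes, 54.1% were below 0 and the median was -0.02. At least 1.5-fold lower were 67 members (50.8%), beside 4.51% of all these genes. At least 2-fold lower were 7 members, beside 1.16% of all these genes. Of the 7, RNF212, RBM47 and OCIAD2 reached 1 FPKM in the parental library alone. Among the 116 members with at least 1 FPKM in both libraries, 4 were at least 2-fold lower. The count of 7 turns on the added constant: it was 24 with 0.1 FPKM added (2.91% of all genes) and 0 with 5 FPKM added (0.155%). In the other direction, 1 member was at least 1.5-fold higher (2.17% of all genes) and 0 were at least 2-fold higher (0.504% of all genes).

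**Figure D1:**
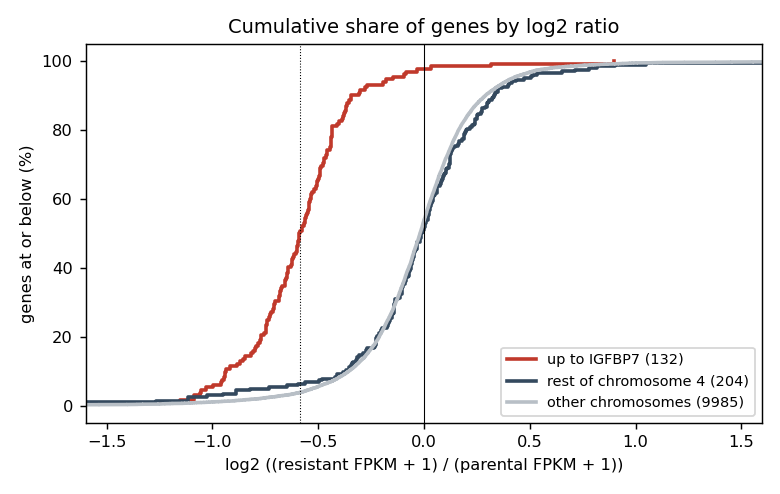
Cumulative share of genes (%) against the log2 ratio of FPKM + 1, resistant over parental, for the 132 members, the 204 other expressed protein-coding genes of chromosome 4 and the 9985 of other chromosomes; the dotted line marks 1.5-fold lower. The curve of the members sits left of the other curves over most of its length, with 97.7% of members below 0 against 51.5% and 53.6%.

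Counts relative to the library total carry no added constant. The median count fold, resistant over parental, was 0.618 over the members, with quartiles of 0.533 and 0.684. For 92 members (69.7%) the count fold lay between 0.50 and 0.75, and 861 of 10189 expressed protein-coding genes elsewhere (8.45%) lay in that band. For 25 members (18.9%) the count fold was below 0.5, beside 3.2% of all 10321 expressed protein-coding genes, more than the 7 that were at least 2-fold lower on the FPKM + 1 scale. Of these 25, ZNF718, RNF212, SPON2, EVC, LCORL, KLF3, RBM47, APBB2, ZAR1 and OCIAD2 reached 1 FPKM in the parental library alone. A 95% counting interval for each fold was computed by the exact Clopper-Pearson method, from how a gene's counts were divided between the libraries. It covers counting error only and treats read pairs as separate molecules. The interval lay wholly below 1 for 127 members, held 1 for SORCS2, PACRGL and SMIM20, and lay wholly above 1 for IDUA and S100P. Summed over the members, counts made up 0.599% of the resistant library and 0.978% of the parental library. In bulk RNA such as this, fewer cells that express a gene and less RNA per cell cannot be told apart.

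The fold was most uniform among the well expressed members. In the 42 members that reached 10 FPKM, the count fold ranged from 0.442 for NSD2 to 0.797 for GRPEL1, with a median of 0.628. In the 43 members between 5 and 10 FPKM, the median was 0.638 and the range ran from 0.397 for NAT8L to 2.09 for S100P. In the 30 between 2 and 5 FPKM, the median was 0.589 and the range ran from 0.0616 for OCIAD2 to 1.42 for IDUA. In the 17 between 1 and 2 FPKM, the median was 0.548 and the range ran from 0.107 for ZNF718 to 1.04 for SORCS2. Of the 132 members, 0 passed the filter through the resistant library alone and 16 through the parental library alone, so low-level members entered mainly when parental cells were the higher. The 116 members with at least 1 FPKM in both libraries had a median log2 ratio of -0.58.

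**Figure D2:**
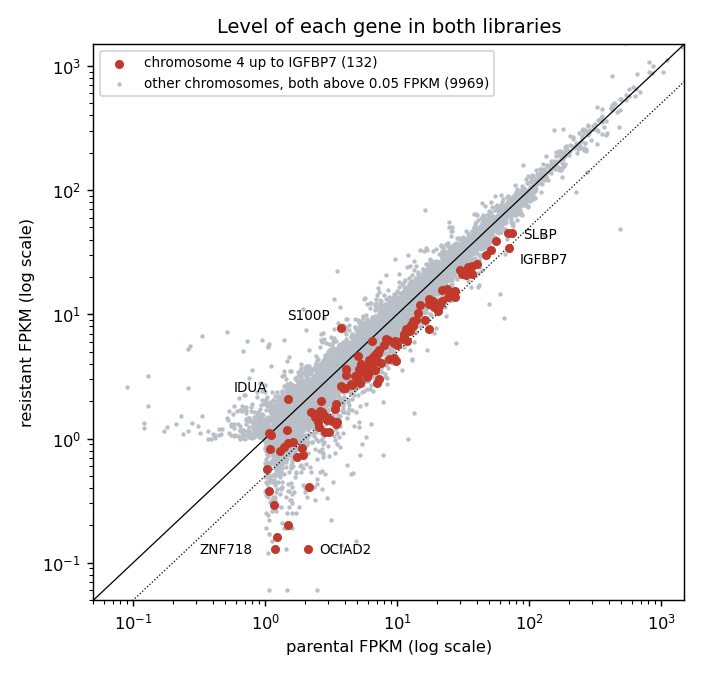
FPKM in resistant cells against FPKM in parental cells, both on log axes, for the 132 members and for expressed genes of other chromosomes above 0.05 FPKM in both libraries; the solid line marks equal levels and the dotted line a resistant level lower by a factor of 2. Most members lie between the lines, up to SLBP at 45.0 against 74.3 FPKM, with S100P and IDUA above the line of equal levels.

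By position, the lower level ran through the whole region. The 57 members that start in the first 10 Mb had a median of -0.54. The medians were -0.59 for 17 genes from 10 to 20 Mb, -0.51 for 11 genes from 20 to 30 Mb, and -0.63 for 10 genes from 30 to 40 Mb. They were -0.62 for 18 genes from 40 to 50 Mb and -0.62 for 19 genes from 50 Mb to the boundary. The 3 members above 0, IDUA, S100P and SORCS2, all lay in the first 10 Mb, and every one of the 75 members beyond 10 Mb was below 0. Over the whole region 97.7% of members were below 0, beside 54.1% of all expressed protein-coding genes. Across the 132 members Spearman's rho between start position and log2 ratio was -0.03, given as a description over genes of the same libraries. The longest stretch with no member, 10.6 Mb, ran from STIM2 to RELL1, and the genes on both sides of it were lower (-0.39 and -0.38).

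The tip of the chromosome began with zinc finger genes. ZNF718 (chromosome 4, 124501 to 202303) stood at 0.13 FPKM in resistant cells against 1.19 in parental cells, ZNF141 (chromosome 4, 337814 to 384868) at 1.3 FPKM in resistant cells against 3.41 in parental cells, and ZNF721 (chromosome 4, 425815 to 499102) at 3.54 FPKM in resistant cells against 6.67 in parental cells. All 3 were lower in resistant cells. They belong to a large family of related Krüppel-type zinc finger genes, and how the authors counted reads that map to several places is not given in the sources used here.

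At the far end, NOA1 (chromosome 4, 56963350 to 56977606), a mitochondrial GTPase, stood at 7.67 FPKM in resistant cells against 11.7 in parental cells. POLR2B (chromosome 4, 56977722 to 57031158), the second largest subunit of RNA polymerase II, stood at 20.8 FPKM in resistant cells against 33.2 in parental cells. IGFBP7 (chromosome 4, 57030773 to 57110385), a secreted protein that binds insulin-like growth factors, stood at 34.4 FPKM in resistant cells against 69.8 in parental cells, from 4510 and 8977 counts. Its count fold was 0.495 (0.478 to 0.513) and its log2 ratio -0.998. On the FPKM + 1 scale it was the lowest of the 19 members beyond 50 Mb, but by count fold SGCB (0.402 (0.353 to 0.457)), CLOCK (0.477 (0.444 to 0.512)) and AASDH (0.490 (0.433 to 0.553)) lay below it. The next expressed protein-coding gene, ADGRL3, an adhesion receptor, begins 4.09 Mb further on and stood at 5.70 FPKM in the resistant library against 6.85 in the parental one (-0.23). After it came CENPC, a centromere protein, at 4.27 and 4.11 FPKM (0.04), and UBA6, a ubiquitin activating enzyme, at 5.87 and 6.97 FPKM (-0.21), resistant cells first.

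The last 20 members and the first 20 expressed genes beyond the boundary had medians of -0.63 and -0.06. DCK, the kinase that activates cytarabine, was among those 20 genes beyond the boundary, at 10.0 FPKM in the resistant library against 22.9 in the parental one (-1.12). Its neighbour MOB1B was at 4.37 FPKM in the resistant library against 4.59 in the parental one (-0.06). Over all 204 expressed protein-coding genes of the rest of chromosome 4 the median was -0.01, and over the 9985 of other chromosomes it was -0.02. The median of the members differed from these by -0.58 and -0.57. Among the other autosomes and X, 22 chromosomes, the median ran from -0.06 to 0.02 and the share of genes at least 1.5-fold lower from 1.89% to 5.66%.

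**Figure D3:**
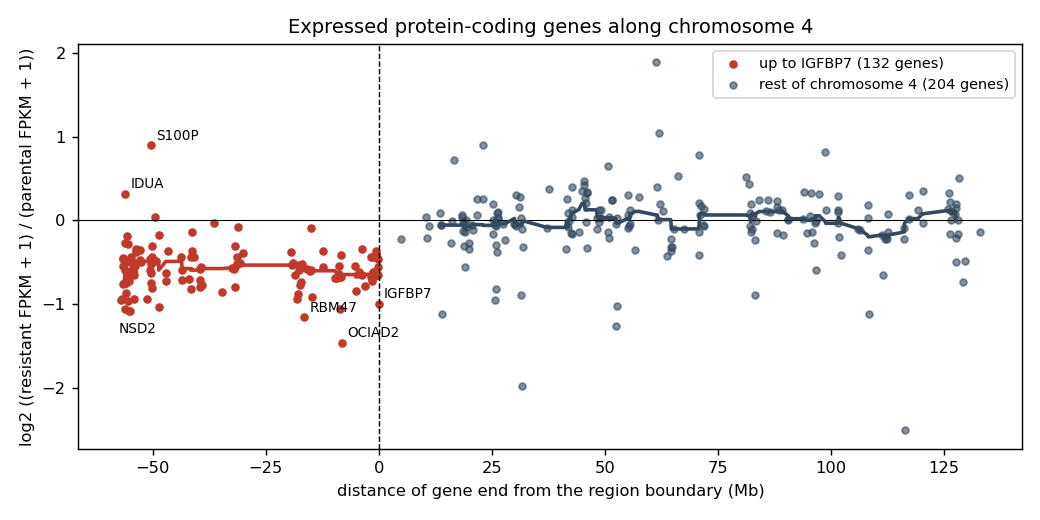
Log2 ratio of FPKM + 1, resistant over parental, against the distance of each gene's end from the region boundary (Mb), for the 132 members left of the dashed line and the 204 other expressed protein-coding genes of chromosome 4; thick lines are running medians over 15 genes. The running median of the members stays near the overall median of -0.59, and that of the other genes near 0.

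By function, members were sorted by hand into 11 lists, which took in 111 of the 132, and each list had a median below 0. In a region chosen by these ratios, 97.7% of members were below 0, beside 54.1% of all expressed protein-coding genes. A median below 0 was thus fixed for nearly any grouping of members, and counts below 0 in the lists restate that share. In the 10 lists with at least 5 expressed members, medians ran from -0.67 for transcription and chromatin to -0.49 for 13 genes of membrane trafficking. The remaining list, cilia and neurodegeneration, had 2 expressed genes. Medians below 0, fixed in the same way, were found for the table's own gene ontology terms. For 12 cellular compartments the median of the members ran from -0.74 for the chromosome (7 members) to -0.48 for the extracellular region (10 members). The genes elsewhere with the same terms had medians from -0.04 to 0.03.

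**Figure D4:**
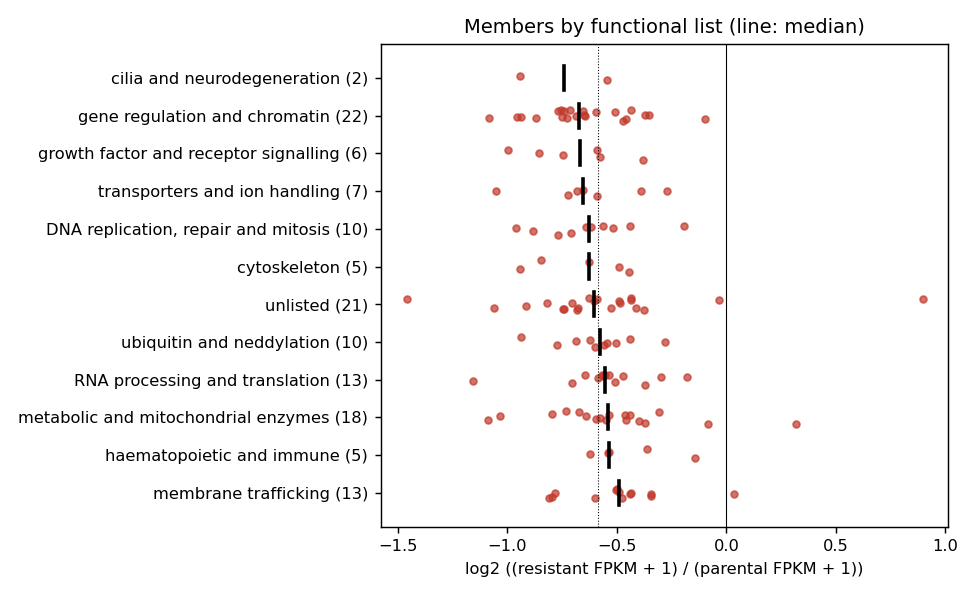
Log2 ratio of FPKM + 1, resistant over parental, of each member, by functional list, with the number of expressed members in brackets; black bars are medians and the dotted line marks 1.5-fold lower. Every list has its median left of 0, and S100P, IDUA and SORCS2 are the 3 points right of it.

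Genes of transcription and chromatin were the largest list, with 22 expressed members and a median of -0.67. At least 1.5-fold lower were 15 of them (68.2%), beside 50.8% of all members and 4.51% of all expressed protein-coding genes. NSD2 (chromosome 4, 1871393 to 1982206), which dimethylates lysine 36 of histone H3, was the lowest of them on the FPKM + 1 scale: it had 7.66 FPKM in resistant cells against 17.4 in parental cells, from 10305 and 22953 counts. Its log2 ratio was -1.09 and its count fold 0.442 (0.432 to 0.453). By count fold, 3 genes of the list with lower levels lay below it: ZNF718 at 0.107 (0.0766 to 0.146), LCORL at 0.376 (0.347 to 0.407) and ZNF141 at 0.382 (0.357 to 0.409). CTBP1, a corepressor, stood at 6.05 FPKM in resistant cells against 11.9 in parental cells. RBPJ, the DNA-binding effector of Notch signalling, stood at 12.8 FPKM in resistant cells against 18.7 in parental cells, and REST, a repressor of neuronal genes, at 4.49 FPKM in resistant cells against 6.54 in parental cells. CLOCK, a circadian transcription factor, stood at 1.44 FPKM in resistant cells against 3.04 in parental cells, and PCGF3, a Polycomb ring finger protein, at 3.1 FPKM in resistant cells against 5.89 in parental cells. KLF3, a repressor of the Krüppel-like family, stood at 0.84 FPKM in resistant cells against 1.9 in parental cells. BEND4 was the highest of the list, at 4.63 FPKM in resistant cells against 5.02 in parental cells (log2 ratio -0.10).

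Genes of DNA replication, repair and mitosis had 10 expressed members with a median of -0.63, all below 0, as were 97.7% of all members. TACC3, a microtubule-associated protein of the mitotic spindle, stood at 13.7 FPKM in resistant cells against 27.6 in parental cells, the lowest ratio of the list (-0.96). RFC1, the large subunit of the clamp loader that places PCNA on DNA, stood at 10.6 FPKM in resistant cells against 20.4 in parental cells. NCAPG, a condensin subunit, stood at 13.8 FPKM in resistant cells against 24.2 in parental cells. SLBP, which binds the stem-loop of replication-dependent histone messages, was among the most abundant members, at 45.0 FPKM in resistant cells against 74.3 in parental cells (count fold 0.608 (0.588 to 0.628)). CEP135, a centriole protein, stood at 1.91 FPKM in resistant cells against 3.46 in parental cells. UVSSA, a factor of transcription-coupled repair, had the smallest difference, at 0.82 FPKM in resistant cells against 1.08 in parental cells.

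RNA processing and translation genes had 13 expressed members and a median of -0.55, all 13 below 0, as were 97.7% of all members. RBM47, an RNA-binding protein that works with APOBEC enzymes, was lowest, at 0.41 FPKM in resistant cells against 2.14 in parental cells, from 237 and 1218 counts. CPEB2, a cytoplasmic polyadenylation factor, stood at 3.29 FPKM in resistant cells against 5.99 in parental cells. FIP1L1, a polyadenylation factor best known for its fusion with PDGFRA in eosinophilic leukaemia, stood at 6.8 FPKM in resistant cells against 11.2 in parental cells. DHX15, a helicase that disassembles spliceosomes, stood at 24.5 FPKM in resistant cells against 36.8 in parental cells. RPL9, a protein of the large ribosomal subunit, stood at 38.6 FPKM in resistant cells against 56.3 in parental cells (count fold 0.687 (0.671 to 0.702)); many processed copies of ribosomal protein genes exist in the genome, and reads could have been split among them. ZCCHC4, a methyltransferase of ribosomal RNA, stood at 1.63 FPKM in resistant cells against 2.24 in parental cells.

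Metabolic and mitochondrial genes had 18 expressed members, 17 of them below 0 (94.4%, beside 97.7% of all members), with a median of -0.54. The lowest were NAT8L, which makes N-acetylaspartate, at 2.79 FPKM in resistant cells against 7.05 in parental cells, and ACOX3, a peroxisomal acyl-CoA oxidase, at 3.04 FPKM in resistant cells against 7.26 in parental cells. LAP3, a leucine aminopeptidase, stood at 21.0 FPKM in resistant cells against 37.1 in parental cells. QDPR, which recycles tetrahydrobiopterin, stood at 5.93 FPKM in resistant cells against 9.33 in parental cells, and PGM2, a phosphopentomutase, at 21.1 FPKM in resistant cells against 31.1 in parental cells. The calcium and potassium handling protein LETM1 of the inner mitochondrial membrane stood at 6.33 FPKM in resistant cells against 11.2 in parental cells, and GRPEL1, the nucleotide exchange factor of mitochondrial HSP70, at 11.8 FPKM in resistant cells against 14.8 in parental cells. SMIM20, a small protein of cytochrome oxidase assembly, differed little (6.04 against 6.47 FPKM, resistant cells first). IDUA, the lysosomal enzyme that is lost in Hurler syndrome, went the other way, at 2.09 FPKM in resistant cells against 1.48 in parental cells (count fold 1.42 (1.25 to 1.61)).

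Ubiquitin and neddylation genes (10 expressed, median -0.58) were all below 0, as were 97.7% of all members. KLHL5, a BTB-Kelch protein, was lowest, at 1.36 FPKM in resistant cells against 3.52 in parental cells. UBE2K, a ubiquitin conjugating enzyme, stood at 15.5 FPKM in resistant cells against 27.3 in parental cells, and COMMD8 at 7.36 FPKM in resistant cells against 12.4 in parental cells. FBXL5, the iron-sensing F-box protein that marks IRP2 for degradation, stood at 10.3 FPKM in resistant cells against 14.3 in parental cells. RNF4, a SUMO-targeted ubiquitin ligase, stood at 8.16 FPKM in resistant cells against 12.9 in parental cells; it overlaps FAM193A (4.24 FPKM in resistant cells against 6.98 in parental cells) on the same strand in the table, and both were lower.

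Membrane trafficking genes (13 expressed, median -0.49) included 12 below 0 (92.3%, beside 97.7% of all members). TBC1D14, a Rab GTPase-activating protein family member that acts in autophagy, stood at 14.8 FPKM in resistant cells against 26.6 in parental cells. PI4K2B, a phosphatidylinositol kinase, stood at 8.99 FPKM in resistant cells against 16.4 in parental cells, and CHIC2, whose gene is deleted in the FIP1L1-PDGFRA rearrangement, at 3.54 FPKM in resistant cells against 6.82 in parental cells. LRPAP1, the chaperone of LDL receptor family proteins, was among the least different, at 4.0 FPKM in resistant cells against 5.35 in parental cells. SCFD2, a Sec1 family protein, was similar, at 6.27 FPKM in resistant cells against 8.24 in parental cells. SORCS2, a sortilin-family receptor, was level in both libraries, at 1.11 FPKM in resistant cells against 1.06 in parental cells, from 476 and 449 counts.

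Cytoskeletal genes (5 expressed, median -0.63) were all below 0, as were 97.7% of all members. They held ADD1, the alpha subunit of adducin, at 4.43 FPKM in resistant cells against 9.45 in parental cells, SGCB, a sarcoglycan, at 1.13 FPKM in resistant cells against 2.83 in parental cells, and WDR1, which helps cofilin to disassemble actin filaments, at 32.9 FPKM in resistant cells against 51.3 in parental cells. WDR1 had the most counts of any member, 17456 and 26752, and a count fold of 0.643 (0.631 to 0.655). Transporter and ion handling genes (7 expressed, median -0.66) were also all below 0, beside the same 97.7% of all members. SLC10A4, an orphan transporter related to the bile acid carriers, stood at 4.22 FPKM in resistant cells against 9.83 in parental cells, SLC2A9, a urate transporter, at 2.79 FPKM in resistant cells against 5.26 in parental cells, and TMEM165, a Golgi ion transporter, at 6.63 FPKM in resistant cells against 11.2 in parental cells.

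Genes of growth factor and receptor signalling (6 expressed, median -0.67) were all below 0, as were 97.7% of all members. Besides IGFBP7 they held ADGRA3, an adhesion receptor, at 4.35 FPKM in resistant cells against 8.68 in parental cells, and FGFRL1, a fibroblast growth factor receptor without a kinase domain, at 4.09 FPKM in resistant cells against 7.55 in parental cells. The kinase receptors of the region were near silent in both libraries. KIT had 35 counts in resistant and 77 in parental cells, PDGFRA 0 and 22, and KDR 0 and 16, in the same order. FGFR3, at 0.49 FPKM in the resistant library against 0.78 in the parental one, stayed under the 1 FPKM rule. A count of 0 allows up to 3 counts.

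Haematopoietic and immune genes had 5 expressed members with a median of -0.54, all below 0, as were 97.7% of all members. TNIP2, an inhibitor of NF-kB signalling, stood at 6.98 FPKM in resistant cells against 11.3 in parental cells, TEC, a cytoplasmic tyrosine kinase, at 3.94 FPKM in resistant cells against 6.19 in parental cells, and the adaptor SH3BP2 at 3.81 FPKM in resistant cells against 5.98 in parental cells. The NAD-consuming surface enzymes BST1 and CD38 lie next to each other and differed less. BST1 stood at 13.3 FPKM in resistant cells against 17.4 in parental cells (count fold 0.767 (0.728 to 0.808)), and CD38 at 3.63 FPKM in resistant cells against 4.12 in parental cells (count fold 0.882 (0.825 to 0.942)). Toll-like receptor genes, elsewhere in the region, were under the rule. TLR1 stood at 0.15 FPKM in the resistant library against 0.34 in the parental one. TLR6 stood at 0.31 and 0.62 FPKM, in the same order.

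In the list of cilia and neurodegeneration, HTT (chromosome 4, 3041422 to 3236179) stood at 3.56 FPKM in resistant cells against 5.65 in parental cells, from 4795 and 7469 counts, and its count fold was 0.633 (0.610 to 0.656). EVC, a ciliary protein of Hedgehog signalling, stood at 0.16 FPKM in resistant cells against 1.23 in parental cells, from 77 and 590 counts. HTT thus lay near the median of the members, whereas EVC was among the lowest by counts. EVC passed the level rule through the parental library alone.

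The 21 members outside the lists held both extremes. OCIAD2 (chromosome 4, 48885019 to 48906798), a protein with an OCIA domain, had 0.13 FPKM in resistant cells against 2.11 in parental cells, from 22 and 352 counts. Its log2 ratio of -1.46 was the lowest of the members, and its count fold was 0.0616 (0.0381 to 0.0947). Its paralogue and neighbour OCIAD1 stood at 11.5 FPKM in resistant cells against 19.0 in parental cells, a count fold of 0.608 (0.584 to 0.634). OCIAD2 was thus far lower than the gene beside it, but it reached 1 FPKM in the parental library alone, whereas OCIAD1 did so in both. RNF212, a RING finger protein that acts in meiotic recombination, stood at 0.2 FPKM in resistant cells against 1.5 in parental cells, from 71 and 507 counts. SHISA3 stood at 1.13 FPKM in resistant cells against 3.02 in parental cells and the matrix protein gene SPON2 at 0.29 FPKM in resistant cells against 1.16 in parental cells. RNF212 and SPON2 too reached 1 FPKM in the parental library alone.

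S100P (chromosome 4, 6693878 to 6697170), a calcium-binding protein of the S100 family whose relatives cluster on another chromosome, was the highest member. It stood at 7.82 FPKM in resistant cells against 3.74 in parental cells, from 250 and 118 counts, with a log2 ratio of 0.90 and a count fold of 2.09 (1.67 to 2.62). Its nearest members on either side were both lower: AC093323 stood at 3.69 FPKM in resistant cells against 5.76 in parental cells, and MRFAP1L1 at 12.7 FPKM in resistant cells against 22.0 in parental cells. MRFAP1, a relative of MRFAP1L1 close by, stood at 45.5 FPKM in resistant cells against 69.1 in parental cells, and AC093323 is annotated as a further relative. These genes resemble each other in sequence, so their counts are uncertain. FRYL, annotated as a FRY-like transcription coactivator, was also among the less different of the well expressed members, at 3.61 FPKM in resistant cells against 5.14 in parental cells.

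Many members encode single parts of protein complexes or pathways whose other parts lie elsewhere in the genome. For 15 such groups, 16 members were set beside the group's other genes. The 16 members had log2 ratios from -0.88 to -0.37, with a median of -0.60. At least 1.5-fold lower were 8 of the 16, beside 50.8% of all members and 4.51% of all expressed protein-coding genes. The 108 expressed partners had ratios from -0.38 to 0.53, with a median of -0.04, and 0 were at least 1.5-fold lower. In each of the 15 groups the gene of the region had a lower ratio than every expressed partner. The region was chosen by these same ratios, and the partner lists, not all complete, were drawn up with earlier results known. The lower ratios of the region's genes were thus largely fixed by that choice. The smallest difference from the partners' median was -0.31, for SRP72, and the largest were -0.73, for both RFC1 and MED28. Which of these was larger turned on the added constant, since with 0.1 FPKM added they were -0.78 for RFC1 and -0.82 for MED28.

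**Figure D5:**
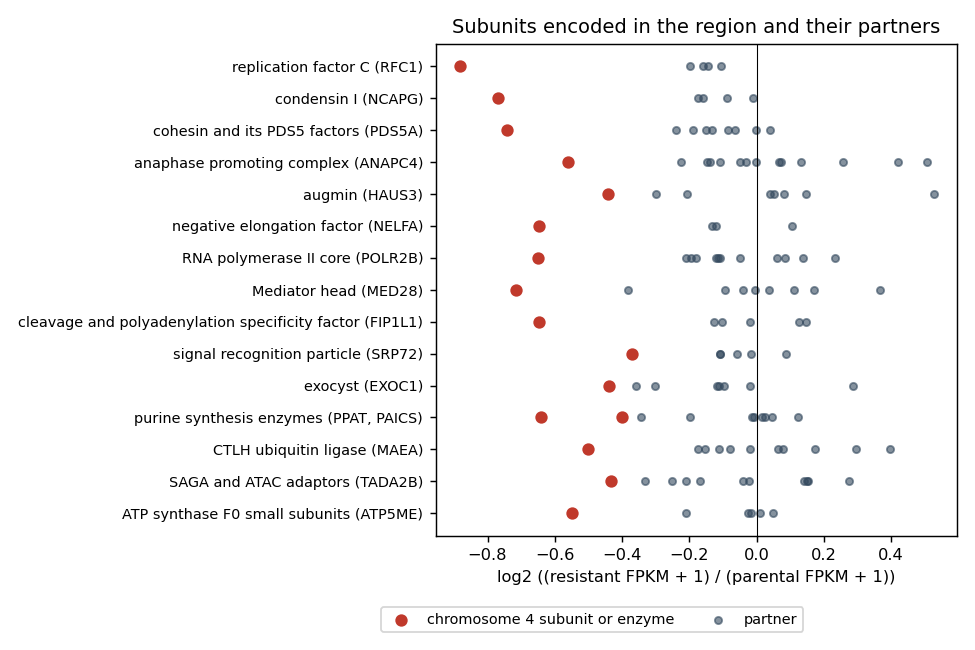
Log2 ratio of FPKM + 1, resistant over parental, of 16 genes of the region (large red points) and of their 108 expressed partners (small points) in 15 complexes or pathways. In each row the red points lie left of every partner, in a region chosen by these same ratios.

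In replication factor C, RFC1 (-0.88) was set beside RFC2, RFC3, RFC4 and RFC5, which ranged from -0.20 to -0.11. RFC4, the farthest from 0, stood at 15.7 FPKM in the resistant library against 18.2 in the parental one. In condensin, which compacts chromosomes for mitosis, NCAPG (-0.77) was set beside SMC2, SMC4, NCAPD2 and NCAPH, which ranged from -0.17 to -0.01. In the cohesin group, PDS5A, a regulator of cohesin's hold on DNA, stood at 12.2 FPKM in resistant cells against 21.0 in parental cells (-0.74). Its paralogue PDS5B, on another chromosome, was at 6.10 FPKM in the resistant library against 6.78 in the parental one (-0.13), and NIPBL, the cohesin loader, at 13.7 and 16.3 FPKM in the same order (-0.24).

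The anaphase promoting complex, the ubiquitin ligase that ends mitosis, held ANAPC4 at 4.04 FPKM in resistant cells against 6.44 in parental cells (-0.56). Its 13 partners had a median of 0.00 and reached 0.51 for CDC16 (25.9 FPKM in the resistant library against 17.9 in the parental one). The augmin complex, which seeds microtubules inside the spindle, held HAUS3 at 1.49 FPKM in resistant cells against 2.38 in parental cells (-0.44). Its 7 partners had a median of 0.05, and HAUS7 reached 0.53 (8.06 against 5.29 FPKM). HAUS3 overlaps POLN on the same strand in the table, so their counts are uncertain.

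Among transcription complexes, POLR2B (-0.65) was set beside 11 other subunits of RNA polymerase II, whose median was -0.11. They ran from -0.21 for POLR2A, the largest subunit, to 0.23 for POLR2K (37.3 FPKM in the resistant library against 31.6 in the parental one). In the Mediator head, MED28 stood at 5.67 FPKM in resistant cells against 9.94 in parental cells (-0.71), and its 8 partners had a median of 0.02, with MED18 the lowest at 7.69 and 10.3 FPKM (-0.38), resistant cells first. In negative elongation factor, which pauses RNA polymerase II, NELFA stood at 3.45 FPKM in resistant cells against 5.97 in parental cells (-0.65) and its 3 partners ran from -0.13 for NELFE to 0.10. TADA2B, an adaptor of the SAGA coactivator, stood at 5.13 FPKM in resistant cells against 7.28 in parental cells (-0.43), beside a median of -0.03 for 10 partners and -0.33 for TAF6L. FIP1L1 (-0.65) was set beside 5 partners of the cleavage and polyadenylation specificity factor, with a median of -0.02 and 0.15 for CPSF2.

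Both purine synthesis genes of the region, which lie head to head, were lower than the rest of their pathway. PPAT (chromosome 4, 56393362 to 56435615) encodes the amidotransferase of the committed step and stood at 6.24 FPKM in resistant cells against 8.55 in parental cells (-0.40). PAICS (chromosome 4, 56435741 to 56461368), a bifunctional enzyme of later steps, stood at 29.9 FPKM in resistant cells against 47.2 in parental cells (-0.64), from 15235 and 23636 counts. The 8 expressed partners had a median of 0.00. IMPDH2, which commits inosine monophosphate to guanine nucleotides, was the lowest of them at 84.4 FPKM in the resistant library against 107 in the parental one (-0.35).

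In the remaining groups the difference was smaller or similar. SRP72, a protein of the signal recognition particle, stood at 22.8 FPKM in resistant cells against 29.8 in parental cells (-0.37), beside a median of -0.06 for 5 partners and -0.11 for SRP9. EXOC1 of the exocyst stood at 4.89 FPKM in resistant cells against 6.98 in parental cells (-0.44), and EXOC3, its lowest partner, was at -0.36. MAEA, a ring finger subunit of the CTLH ubiquitin ligase, stood at 3.35 FPKM in resistant cells against 5.16 in parental cells (-0.50), beside a median of 0.02 for 10 partners and 0.40 for YPEL5. ATP5ME of the ATP synthase stood at 16.1 FPKM in resistant cells against 23.9 in parental cells (-0.55). Its partners were limited to small subunits of the F0 part. The 5 expressed ones had a median of -0.02, with ATP5MF the lowest at -0.21, and 2 more had no value.

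Several members have transcription start sites less than 1000 bases apart on opposite strands. Most of these start back to back, so that they share a promoter region, but ATP5ME and MYL5 overlap at their starts. There were 10 such pairs, and both genes were lower in each, as were 97.7% of all members. The absolute difference in log2 ratio within a pair ran from 0.10 to 0.38, with a median of 0.21. Over 121 other pairs of neighbouring members the median absolute difference was 0.26. NOA1 and POLR2B, whose starts lie 116 bases apart, had -0.55 and -0.65. DCAF16, a substrate receptor of ubiquitin ligases, and NCAPG, 221 bases apart, had -0.56 and -0.77. FBXL5 and FAM200B, 43 bases apart, differed most, at -0.44 and -0.82.

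Promoter windows from RefSeq (GRCh38.p14, 250 bases before to 50 after the start) were found by symbol for 113 of the 132 members, and 76 of these had a start within 100 bases of the deposited one. Shown are those of NSD2, the lowest of the members that reached 10 FPKM, RFC1, among the farthest below its partners, PPAT, whose window also spans the start of PAICS, and S100P, the highest member. Capitals mark letters that match any of several motifs, on either strand and with overlaps merged. The GC box is GGGCGG. The CCAAT box is its own name spelled out. The TATA box was searched as TATAAA. The E-box was searched as CACGTG. The cyclic AMP response element core was searched as TGACGTCA.
NSD2, plus strand, chr4:1871143-1871442: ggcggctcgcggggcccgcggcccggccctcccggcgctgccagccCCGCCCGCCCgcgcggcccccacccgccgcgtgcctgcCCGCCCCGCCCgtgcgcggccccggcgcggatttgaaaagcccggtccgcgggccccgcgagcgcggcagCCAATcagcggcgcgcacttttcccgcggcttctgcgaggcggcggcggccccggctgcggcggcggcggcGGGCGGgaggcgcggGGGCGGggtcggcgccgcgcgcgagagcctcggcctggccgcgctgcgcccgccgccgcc
RFC1, minus strand, chr4:39366313-39366612: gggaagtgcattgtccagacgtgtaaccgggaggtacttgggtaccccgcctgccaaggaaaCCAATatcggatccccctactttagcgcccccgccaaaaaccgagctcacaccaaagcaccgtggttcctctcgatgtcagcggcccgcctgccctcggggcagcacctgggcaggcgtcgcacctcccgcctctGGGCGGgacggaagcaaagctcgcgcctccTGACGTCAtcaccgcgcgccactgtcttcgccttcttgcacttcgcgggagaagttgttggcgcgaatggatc
PPAT, minus strand, chr4:56435566-56435865: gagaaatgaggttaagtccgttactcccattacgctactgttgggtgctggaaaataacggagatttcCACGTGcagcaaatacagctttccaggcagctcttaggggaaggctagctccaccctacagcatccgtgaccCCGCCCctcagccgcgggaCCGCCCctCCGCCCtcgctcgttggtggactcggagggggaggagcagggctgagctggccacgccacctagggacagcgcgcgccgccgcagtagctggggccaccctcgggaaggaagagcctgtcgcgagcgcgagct
S100P, plus strand, chr4:6693628-6693927: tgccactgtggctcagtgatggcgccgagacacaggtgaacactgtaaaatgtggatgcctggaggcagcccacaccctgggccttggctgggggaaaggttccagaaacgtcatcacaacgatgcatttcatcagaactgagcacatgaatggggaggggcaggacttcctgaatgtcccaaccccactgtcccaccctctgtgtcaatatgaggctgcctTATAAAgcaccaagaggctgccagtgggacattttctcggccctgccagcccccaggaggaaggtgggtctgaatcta

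The NSD2 window held 6 GC boxes, some of them overlapping, and 1 CCAAT box, and the RFC1 window 1 GC box, 1 CCAAT box and 1 response element core. The PPAT window held 3 GC boxes and 1 E-box, and the S100P window held 1 TATA box. Over the 113 members, 63.7% of windows held a GC box, against 71.4% of windows of 8310 expressed protein-coding genes elsewhere and 45.0% of all 35116 windows. For the CCAAT box the shares were 33.6%, 37.1% and 34.6%, and for the TATA box 6.19%, 5.21% and 11.5%, in the same order. For the E-box they were 17.7%, 10.4% and 7.26%, and for the response element core 7.96%, 3.35% and 1.85%. The median GC content was 68.7% in members, 65.3% in the expressed genes elsewhere and 58.7% in all windows. These are matches of letters in a window and show no binding.

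Just outside the level rule, the nearest non-members of the region were ATP10D, a lipid flippase, at 0.67 FPKM in the resistant library against 0.95 in the parental one, LIAS, the lipoic acid synthase, at 0.30 and 0.92 FPKM, and FAM114A1 at 0.38 and 0.92 FPKM. Just inside it, RELL1 stood at 0.57 FPKM in resistant cells against 1.04 in parental cells, APBB2 at 0.38 FPKM in resistant cells against 1.06 in parental cells and UVSSA at 0.82 FPKM in resistant cells against 1.08 in parental cells. Those on both sides were lower in resistant cells. Of the 73 protein-coding rows of the region with a level above 0 and under 1 FPKM, 57 were below 0 (78.1%), beside 55.0% of 4533 such rows elsewhere.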

How the data were processed

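Poly(A) RNA from 1 library each of resistant and parental THP-1 cells was measured, with groups taken from the sample titles. The tools that the submitters' processing notes list, without role or order, are DESeq2, edgeR, StringTie 1.3.4d, HISAT2 2.0.4 and cutadapt 1.9, and the build is GRCh38. The deposited table held FPKM, normalised by the authors to transcript length and library size, and whole-number counts, which the authors deposited without normalisation. Per the labels' protocols the libraries keep strand. The strand setting of the counting, the annotation release and the handling of multiply mapping reads are not given in the sources used here. The name of the resistant count column ends in an unexplained suffix. Over 6175 genes the log2 ratios from counts and from FPKM had a Pearson's r of 1.00 (across genes), so both columns were used as the same library.

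The log2 ratio used a pseudocount of 1 FPKM. As each group has 1 library, genes were counted by size (1.5-fold and 2-fold on the FPKM + 1 scale) in place of a test. The members, function lists, partner lists and size rules were chosen with earlier results of these data known. Named genes were members at least 2-fold apart, the 10 lowest and 10 highest of those with at least 5 FPKM, the 3 most different of each list, the genes of the partner groups with their farthest partner, and those at either end and beside the thresholds. Other genes were named with their values in view, and so were the compartment terms, back-to-back pairs and promoter letters. Alternatives were other pseudocounts, other minimum levels, CPM, another scaling, members without overlaps and a shorter region. The steps were tested on simulated counts. Software was matplotlib 3.10.9, scipy 1.17.1, pandas 2.3.3 and numpy 2.4.6 under Python 3.11.15.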

Additional observations from a re-analysis of the deposited data

How the results depend on the processing

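The median of the members stayed below 0 under all 8 alternatives, and 32 of the 132 members overlap another gene on the same strand. With a pseudocount of 0.1 FPKM the median log2 ratio was -0.67, the differences from the rest of chromosome 4 and from other chromosomes were -0.66 and -0.65, and 24 members were at least 2-fold lower (2.91% of all expressed protein-coding genes). With a pseudocount of 5 FPKM the same values were -0.33, -0.32 and -0.32, with 0 members at least 2-fold lower (0.155% of all), 17 at least 1.5-fold lower (0.940% of all) and 0 at least 1.5-fold higher. With a minimum of 5 FPKM, 85 members were left, of which 84 were below 0 and 4 at least 2-fold lower (0.763% of all). With no minimum above 0, 205 genes gave -0.46, -0.44 and -0.44. With CPM in place of FPKM the values were -0.67, -0.66 and -0.65, with 22 members at least 2-fold lower (2.47% of all, against 1.16% in the reported setting). Scaling to the median of other chromosomes, leaving out the overlapping members and ending the region at 50 Mb gave medians of -0.57, -0.55 and -0.58. Members at least 2-fold lower were 7, 5 and 7, in the same order (1.09%, 1.16% and 1.16% of all). The causes of these shifts were not tested. All 114 differences between a gene and its partners, all 88 list medians and all 47 interval medians computed under the alternatives stayed below 0. The median of the 2 cilia and neurodegeneration genes, -0.74, became -1.50 with 0.1 FPKM added and -0.29 with 5 FPKM added. No paired analysis was possible because each group has 1 library. Without replicates, the spread between cultures is unknown.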

Other observations

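Rows of the region with other transcript types were not members. Their median log2 ratio was -0.31 over the 17 that reached 1 FPKM in either library. Of these, 13 lay below 0 (76.5%), beside 54.1% of all expressed protein-coding genes. The share over such rows elsewhere in the genome was not computed. The long noncoding RNA DANCR, the most abundant of them by counts, had 1207 counts in resistant and 2758 in parental cells, a count fold of 0.431 (95% counting interval 0.403 to 0.462). CTBP1-DT, which starts beside CTBP1, had 863 counts in resistant and 1292 in parental cells (count fold 0.658, 0.603 to 0.718), and NOP14-AS1 had 549 and 865 counts in the same order (0.625, 0.561 to 0.697). NOP14, on the other strand of that locus, stood at 24.0 FPKM in resistant cells against 34.6 in parental cells. The pseudogene AC114744 was higher in resistant cells, with 127 counts against 79 (1.58, 1.19 to 2.13). It lies within BST1 on the opposite strand and is a processed pseudogene, so its counts are uncertain.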
